A study of Homo sapiens with 12 samples.

Results

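The 10 genes described here are a WNT ligand, the coactivator beta-catenin, its DNA-binding partners and a set of genes known as beta-catenin targets: WNT5A, DKK1, RNF43, ZNRF3, AXIN2, NKD1, CTNNB1, TCF7, TCF7L2 and LEF1. They were chosen by symbol, and all 10 had a row in both deposited count tables, out of 36675 genes listed in either table. Each was followed in every library of the melanoma lines A375 and CHL1, both human, and of a palbociclib-resistant derivative of each. Palbociclib inhibits the cell cycle kinases CDK4 and CDK6. The parental groups are A375 and CHL1 cells grown in RPMI as controls. The resistant groups are A375AR991, selected in rising palbociclib over 7 months, and CHL1AR991, selected over 3 months, both then held in 4 µM of the drug. The labels give all 12 samples the same final step, a growth period of 72 h without palbociclib ahead of RNA extraction. Each of the 4 groups has 3 libraries. Each resistant group is 1 derivative of its line, the labels do not say whether it is a clone, and the effects of selection, drug and time in culture cannot be told apart. No label states that the 3 libraries of a group were separate cultures, so the p-values describe the variation among these samples alone, and that variation may be technical.

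WNT proteins are secreted lipid-modified ligands that bind Frizzled receptors together with LRP5 or LRP6. In cells without a WNT signal, a destruction complex built on AXIN and APC marks beta-catenin for degradation. When the signal arrives, beta-catenin accumulates, enters the nucleus and joins TCF/LEF proteins on DNA. Among the genes it switches on, AXIN2, NKD1, DKK1, RNF43 and ZNRF3 encode proteins that damp the pathway, while LEF1 and TCF7 encode its DNA-binding partners. WNT5A acts mostly through routes that do not need beta-catenin, and in melanoma it is known for its link to motility and to a less differentiated state.

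Total counts per library ran from 25398920 to 29812686, and 3 counts in 1 library stood for 0.101 to 0.118 CPM (counts scaled to the library total). Levels are given as normalised CPM, which is counts scaled by library size and by TMM factors over all 12 libraries, as mean ± SD. Of 8 markers of the melanocyte lineage, 3 to 6 reached 1 CPM in each group, led by SOX10. Their summed level was 414 to 566 CPM in parental and 254 to 395 CPM in resistant A375, without overlap. In CHL1 it was 1129 to 1369 against 1162 to 1359 CPM. TYR was at 0 counts in both A375 groups. Single markers moved both ways. In A375 the mean of SOX10 went from 400 to 295 CPM and that of TYRP1 from 0.210 to 1.74 CPM. In CHL1 the mean of DCT went from 44.6 to 19.1 CPM and that of S100B from 114 to 184 CPM. The summed level of 7 fibroblast markers was 14.1 to 16.3 CPM in parental and 42.6 to 52.0 CPM in resistant A375, and 13.7 to 19.8 against 8.21 to 10.3 CPM in CHL1. The 6 keratinocyte and epithelial markers summed to between 341 and 474 CPM in A375 and between 22.9 and 26.3 CPM in CHL1. The leukocyte and endothelial lists did not exceed 79.5 and 14.3 CPM in any library, and PECAM1 had no row in either table. The part of these markers in the results was not tested.

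Resistant and parental libraries of each line were compared over all genes with edgeR's quasi-likelihood test, and a gene counts as called where its p, after Benjamini-Hochberg adjustment, was below 0.05. Fold changes set resistant against parental libraries and are log2 values ± SE. In A375, 9 of the 10 genes had enough counts to be tested: CTNNB1 rose, WNT5A, TCF7L2 and TCF7 fell, and 5 were not called. Over all 18086 genes tested in A375, 28.3% were called, 13.4% as higher and 14.8% as lower. In CHL1, 8 of the 10 were tested: CTNNB1, DKK1, NKD1 and LEF1 fell, 0 rose and 4 were not called. Over all 17219 genes tested in CHL1, 21.2% were called, 9.11% as higher and 12.1% as lower. The median log2 fold change of the tested genes of the set was 0.16 in A375 and -0.22 in CHL1, beside -0.00084 and 7.9e-05 over all genes tested. CTNNB1 was the 1 gene of the set called in both lines, in opposite directions. In bulk libraries, fewer cells that express a gene and less RNA per cell cannot be told apart.

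**Figure D1:**
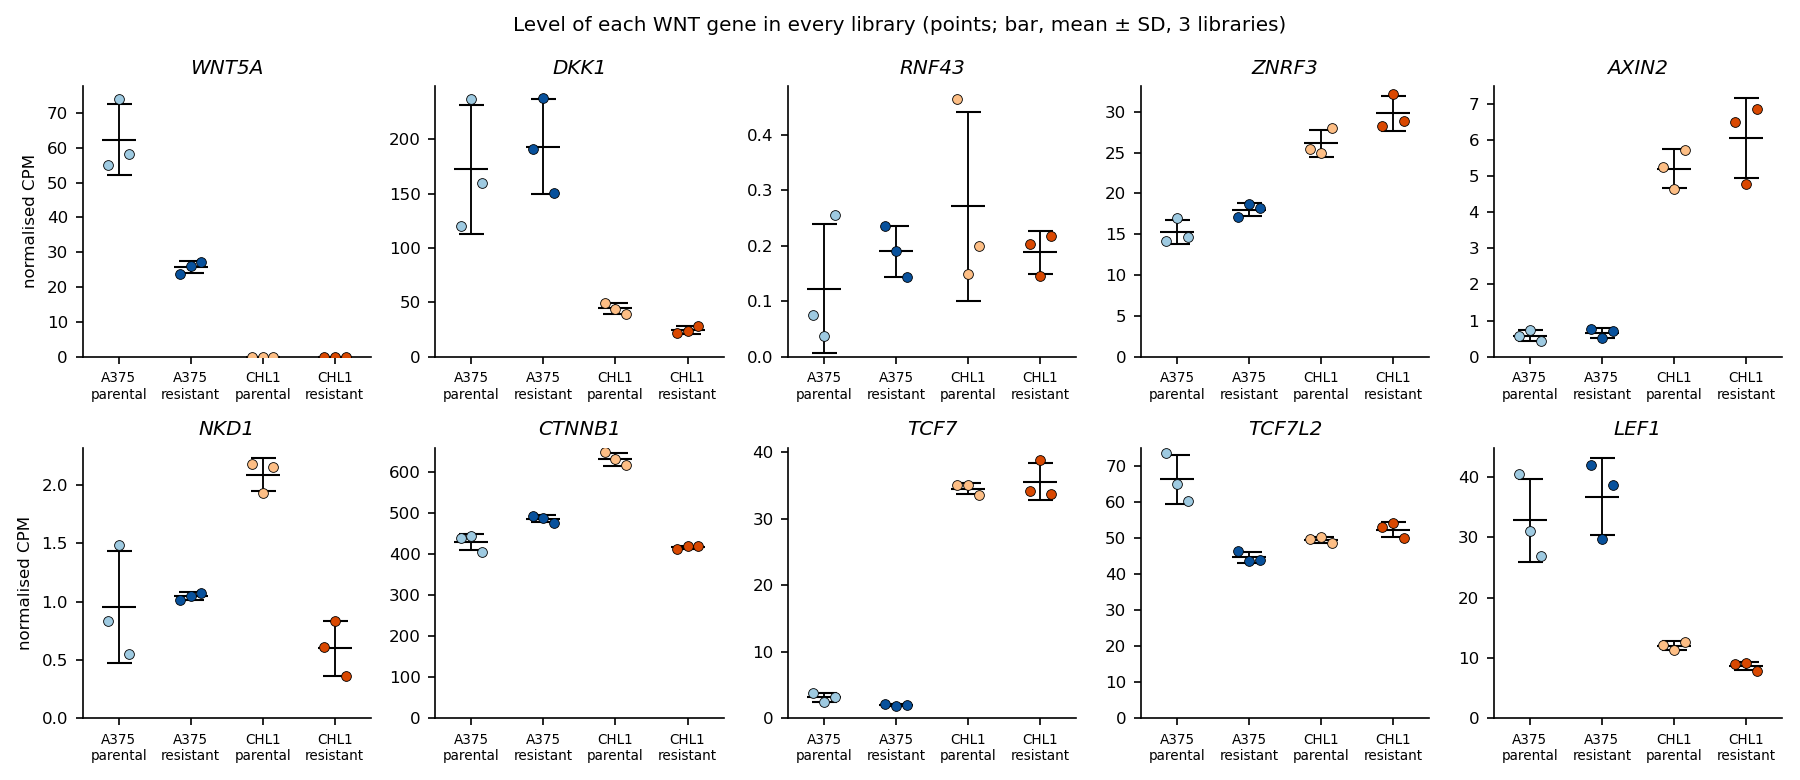
Normalised CPM (y axis, with its own scale for each gene) of the 10 WNT genes in every library of the 4 groups (x axis). Points are libraries and bars give the mean ± SD of 3 libraries. WNT5A lay near 0 in all 6 CHL1 libraries, DKK1 and LEF1 were higher in A375 than in CHL1, and TCF7 and AXIN2 were higher in CHL1.

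The stretches just upstream of DKK1, LEF1 and CTNNB1 are shown because these are the genes lowered in resistant CHL1 for which the RefSeq promoter table held an entry. The table covered 7 of the 10 genes with 12 windows, and each window below is the 250 bases before the RefSeq start on the gene's own strand, 5′ to 3′, in build GRCh38.p14. Capitals mark CTTTGA, 1 form of the core letters to which TCF/LEF proteins are known to bind, or its reverse complement TCAAAG, searched on both strands. Other forms of the core were not searched and stay in lower case.
DKK1, chr10:52314031-52314280, plus strand: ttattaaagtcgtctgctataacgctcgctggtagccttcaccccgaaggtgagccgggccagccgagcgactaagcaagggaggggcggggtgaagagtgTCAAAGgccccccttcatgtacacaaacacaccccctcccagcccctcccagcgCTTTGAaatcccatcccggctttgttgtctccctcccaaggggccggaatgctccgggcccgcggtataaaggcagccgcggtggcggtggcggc
LEF1, chr4:108166302-108166551, minus strand: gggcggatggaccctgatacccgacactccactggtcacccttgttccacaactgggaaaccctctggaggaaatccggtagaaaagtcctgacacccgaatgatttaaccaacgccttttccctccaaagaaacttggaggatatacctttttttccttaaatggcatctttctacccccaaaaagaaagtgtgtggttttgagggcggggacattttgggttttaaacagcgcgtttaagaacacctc
CTNNB1, chr3:41199255-41199504, plus strand: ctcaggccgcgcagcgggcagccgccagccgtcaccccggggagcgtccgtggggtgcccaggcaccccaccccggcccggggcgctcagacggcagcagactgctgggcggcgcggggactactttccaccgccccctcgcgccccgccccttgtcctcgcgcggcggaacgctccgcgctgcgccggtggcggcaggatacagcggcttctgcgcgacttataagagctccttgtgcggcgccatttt
The DKK1 window held the letters at 2 places, as TCAAAG 149 to 144 bases and as CTTTGA 95 to 90 bases before the start. The other 11 windows of the set held neither form. Of all 35116 windows of this length in the table, 3937 (11.2%) held at least 1. A match is a run of letters and not a measured binding site.

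WNT5A (ENSG00000114251, chromosome 3) was the main WNT ligand transcript of A375 and fell in its resistant derivative. Its levels were 54.9, 74.0 and 58.1 CPM in the parental A375 libraries and 23.9, 26.0 and 27.3 CPM in the resistant ones. Every resistant library was below every parental one, and the highest resistant value was less than the lowest parental value by more than the spread of either group. The mean went from 62.4 ± 10.2 CPM (SD, n = 3) to 25.7 ± 1.76 CPM (SD, n = 3), -1.28 ± 0.11 (adjusted p = 9.58e-05) on the log2 scale. The 20 nearest protein-coding genes of at least 1 CPM had a median log2 fold change of -0.06. WNT5A-AS1, an antisense transcript over the gene with 357 counts in all against 7323 for WNT5A, had a log2 fold change of -1.11 (adjusted p = 0.00558). The kit does not mark strand, so reads of the pair cannot be told apart. In CHL1, WNT5A had 1 count over the 3 parental and 1 over the 3 resistant libraries and was not tested, and its 20 neighbours had a median of -0.44.

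A pool of all WNT ligand transcripts was summed per kilobase of exon (CPM per kb), a scale on which different genes can be compared roughly. The length counts all annotated exons of a gene and not those of its main isoform. In A375 the pool was 14.9 ± 1.54 CPM per kb (SD, n = 3) in parental and 8.56 ± 0.852 CPM per kb in resistant libraries, with no overlap. WNT5A made up 56.5% ± 5.77 of the parental pool and 40.7% ± 1.52 of the resistant pool (SD, n = 3). WNT10B, whose own level was 5.50 CPM in parental and 5.66 CPM in resistant A375, took 13.9% of the parental pool and 25.3% of the resistant one. In CHL1 the pool was smaller, 5.02 ± 0.221 CPM per kb in parental and 4.71 ± 0.188 CPM per kb in resistant libraries (SD, n = 3). There WNT3, a ligand of the beta-catenin branch, held 42.3% of the parental and 56.0% of the resistant pool, and WNT5A 0.034% in each.

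**Figure D2:**
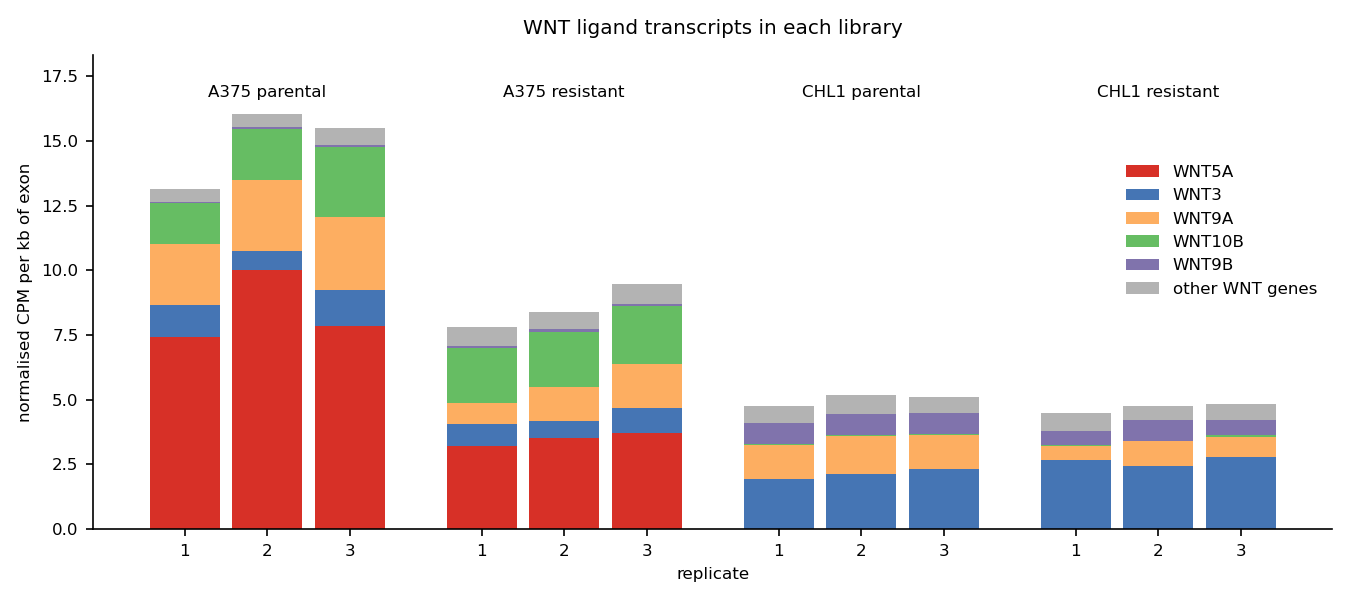
Stacked bars give the WNT ligand transcripts of each library (x axis, replicates by group) in normalised CPM per kb of exon (y axis), with 5 ligands in colour and the other WNT genes in grey. WNT5A is the largest piece in all 6 A375 bars and absent from the CHL1 bars at this scale, where WNT3 is the largest piece.

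Of 19 ligands on a wider list of 104 WNT pathway genes, 8 were tested in A375, 1 up (WNT5B, 1.37 ± 0.34, named after its values were seen and under 1 CPM in every library, with the call lost with DESeq2, adjusted p = 0.102, and without resistant replicate 1 or parental replicate 2 or 3) and 2 down (WNT5A and WNT9A), and 5 in CHL1, with WNT3 up and WNT9A down. Of all genes tested, 28.3% were called in A375 and 21.2% in CHL1. WNT9A was called lower in both lines. In A375 it went from 9.41, 10.9 and 11.2 CPM in parental to 3.30, 5.23 and 6.88 CPM in resistant libraries, -1.03 ± 0.23 (adjusted p = 0.00889). In CHL1 the parental levels were 5.15, 5.82 and 5.35 CPM and the resistant ones 2.27, 3.76 and 3.08 CPM, -0.83 ± 0.16 (adjusted p = 0.00256). The groups did not overlap in either line, and the difference between the lines was -0.20 (adjusted p = 0.698, edgeR interaction term). WLS, the carrier that brings WNT proteins to the cell surface, rose in A375 from 65.9 to 101 CPM, 0.61 ± 0.07 (adjusted p = 0.000411). In CHL1 its change was 0.14 ± 0.04 (adjusted p = 0.0299), a call lost without any 1 of the 3 parental libraries or without resistant replicate 3 (edgeR, 0.0646 to 0.115). PORCN, the enzyme that attaches the lipid, fell in A375 by 0.61 on the log2 scale (adjusted p = 0.00381), and its change in CHL1 was -0.17 ± 0.07 (adjusted p = 0.101). NOTUM, an enzyme that removes the lipid, had -1.33 ± 0.28 (adjusted p = 0.00476) in CHL1 from levels below 1 CPM, and is named after its values were seen. WNT3 was called higher in CHL1, 0.31 ± 0.09 (adjusted p = 0.0385), but 4 of 6 fits with a library left out lost the call, those without parental replicate 1 or 2 and without resistant replicate 1 or 3 (0.0766 to 0.136). The WNT3 call was also lost with DESeq2 (0.0552) and with the spread from all 12 libraries (0.279), and the WLS call in CHL1 with that spread (0.136).

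DKK1 (ENSG00000107984, chromosome 10) encodes a secreted inhibitor that blocks LRP5 and LRP6. It fell in resistant CHL1 and showed a wide spread in A375. Its CHL1 levels were 49.8, 44.3 and 39.9 CPM in parental and 21.6, 23.7 and 28.8 CPM in resistant libraries. All 3 resistant values were below all 3 parental values. The mean went from 44.6 ± 4.95 CPM (SD, n = 3) to 24.7 ± 3.70 CPM (SD, n = 3), -0.86 ± 0.10 (adjusted p = 0.000118). The 20 expressed neighbours had a median of -0.01. In A375 the levels were 121, 237 and 160.3 CPM in parental and 191, 238 and 151 CPM in resistant libraries. The groups overlapped, and the highest library of each was replicate 2. The A375 change was 0.16 ± 0.23 (adjusted p = 0.652) and was not called. PRKG1-AS1, an antisense gene over DKK1 with 278 counts in all against 36880 for DKK1, had 1.09 in A375 and -0.84 in CHL1, where it was not called (adjusted p = 0.089).

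Among 12 inhibitor genes on the wider list, most of them for secreted proteins, 6 were tested in each line. In A375 1 rose, DKK3, and 0 fell. In CHL1 3 rose (SFRP1, KREMEN1 and DKK3) and DKK1 alone fell. Of all genes tested, 13.4% were called higher and 14.8% lower in A375, and 9.11% and 12.1% in CHL1. SFRP1, which binds WNT proteins outside the cell, had 98.7, 101 and 96.4 CPM in parental and 131, 145 and 122 CPM in resistant CHL1, 0.42 ± 0.06 (adjusted p = 0.000384). KREMEN1, a membrane partner of DKK1, went from 76.8 to 93.3 CPM in CHL1, 0.28 ± 0.05 (adjusted p = 0.00110). DKK3, a relative of DKK1, had 0.62 in A375 (adjusted p = 0.0180) and 0.38 in CHL1 (adjusted p = 0.00610). The A375 call of DKK3 was lost without parental replicate 2 and also without resistant replicate 1 or 3 (edgeR, 0.0535 to 0.0694). Its CHL1 call was lost with the spread from all 12 libraries (adjusted p = 0.0676).

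RNF43 and ZNRF3 encode ubiquitin ligases of the cell surface that remove Frizzled receptors. ZNRF3 (ENSG00000183579, chromosome 22) held between 99.0% and 99.4% of the summed CPM per kb of this pair, as means of the 4 groups. Its levels were 14.2, 17.0 and 14.6 CPM in parental and 17.2, 18.7 and 18.2 CPM in resistant A375. In CHL1 they were 25.5, 24.9 and 28.0 CPM in parental and 28.3, 32.2 and 28.9 CPM in resistant libraries. In both lines the lowest resistant library was above the highest parental one by a small margin. The log2 fold changes were 0.24 ± 0.10 (adjusted p = 0.0957) in A375 and 0.19 ± 0.07 (adjusted p = 0.0846) in CHL1, and neither was called. Without a call, ZNRF3 was still among the 5 genes of the set whose groups did not overlap in A375, and the 5 in CHL1. Over all genes tested, 42.8% did not overlap in A375 and 36.7% in CHL1. RNF43 (ENSG00000108375, chromosome 17) was near the detection limit, with 10 counts over the parental and 17 over the resistant A375 libraries, and 22 and 15 in CHL1. The resistant to parental ratio by depth was 1.56 in A375 (95% exact counting interval 0.674 to 3.81) and 0.688 in CHL1 (0.332 to 1.39). No difference was detected at this depth, and changes inside these intervals would be missed.

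R-spondins are secreted ligands that inhibit RNF43 and ZNRF3, and LGR4, LGR5 and LGR6 are their receptors. Of 9 genes of this arm on the wider list, 5 were tested in A375, with LGR5 up and LGR6 down, and 3 in CHL1, with LGR4 up. The share called over all genes tested was 28.3% in A375 and 21.2% in CHL1. In A375, LGR6 went from 3.79, 5.85 and 4.47 CPM in parental to 0.168, 0.223 and 0.143 CPM in resistant libraries, -4.68 ± 0.28 (adjusted p = 1.36e-05). LGR5, a receptor known as a stem cell marker and a beta-catenin target, went the other way, from 0.152, 0.222 and 0.110 CPM to 2.39, 4.59 and 2.58 CPM, 4.28 ± 0.41 (adjusted p = 0.000130). The parental LGR5 and the resistant LGR6 libraries held 3 to 7 counts each, at or just above the floor of 3 counts. LGR4 held most of the pool of the 3 receptors per kilobase in A375, 66.3% in parental and 74.9% in resistant libraries, and its own change there was -0.13 ± 0.10 (adjusted p = 0.403). In CHL1, LGR4 rose from 46.0, 44.0 and 38.5 CPM to 63.9, 66.7 and 56.5 CPM, 0.54 ± 0.08 (adjusted p = 0.000451), and made up 99.6% of the pool in both groups. LGR5 had no row in the CHL1 table, which lists no gene with 0 counts in all 6 libraries.

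**Figure D3:**
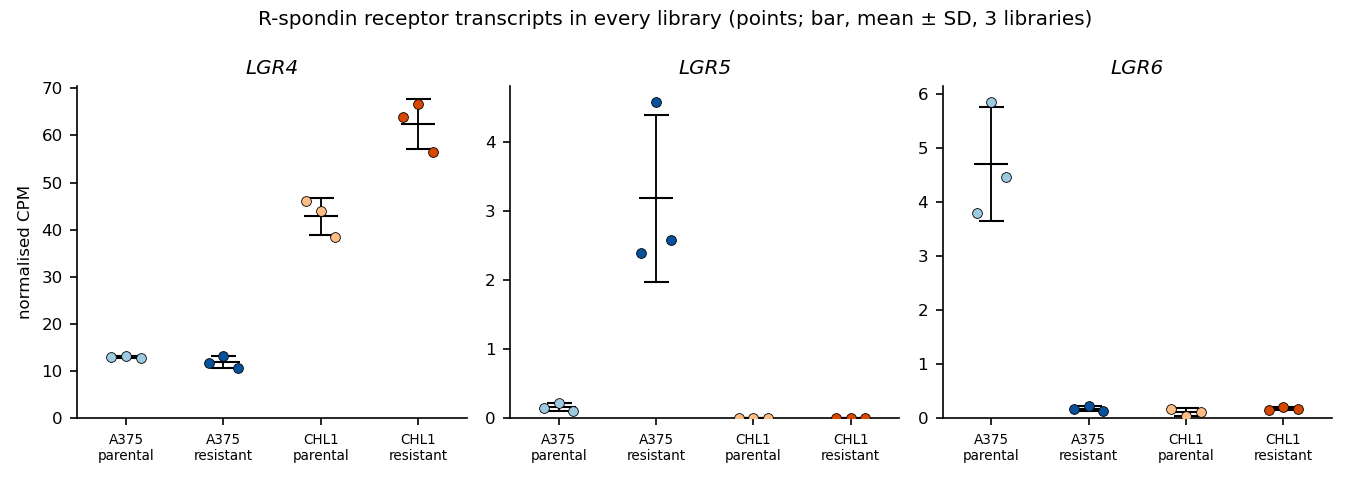
Normalised CPM (y axis, with its own scale for each gene) of LGR4, LGR5 and LGR6 in every library of the 4 groups (x axis). Points are libraries and bars give the mean ± SD of 3 libraries. LGR5 has no row in the CHL1 table and is drawn at 0 there. In A375 the resistant libraries lie above the parental ones for LGR5 and below them for LGR6, and in CHL1 the resistant libraries lie above for LGR4.

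AXIN2 (ENSG00000168646, chromosome 17), a scaffold of the destruction complex and a widely used readout of beta-catenin activity, was not called in either line. Its levels were 0.569, 0.741 and 0.439 CPM in parental and 0.775, 0.510 and 0.717 CPM in resistant A375. In CHL1 they were 5.26, 4.63 and 5.71 CPM in parental and 6.49, 4.78 and 6.85 CPM in resistant libraries. The groups overlapped in both lines, and resistant replicate 2 was the lowest of its group in each. The log2 fold changes were 0.19 ± 0.28 (adjusted p = 0.672) in A375, from 47 parental and 59 resistant counts, and 0.21 ± 0.14 (adjusted p = 0.338) in CHL1.

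NKD1 (ENSG00000140807, chromosome 16), which binds Dishevelled and is also a common readout of the pathway, fell in resistant CHL1. Its CHL1 levels were 2.18, 1.93 and 2.15 CPM in parental and 0.608, 0.832 and 0.363 CPM in resistant libraries. All resistant values were below all parental ones, and the means were 2.09 ± 0.139 CPM (SD, n = 3) and 0.601 ± 0.235 CPM (SD, n = 3). The log2 fold change was -1.79 ± 0.24 (adjusted p = 0.000256), the largest of the set in CHL1, beside a median of 0.08 over its 20 expressed neighbours. NKD1 in A375 had 0.835, 1.48 and 0.549 CPM in parental and 1.01, 1.05 and 1.08 CPM in resistant libraries. There the 3 resistant values lay close together inside the wider parental range, and the change was 0.13 ± 0.32 (adjusted p = 0.804). In CHL1, NKD1 was thus called lower and AXIN2 was not called, and the difference between their changes was not tested.

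Of the 16 genes of the destruction complex and Dishevelled group on the wider list, all were tested in both lines. In A375 5 rose and 3 fell, and in CHL1 0 rose and 4 fell, including NKD1, where 13.4% and 14.8% of all genes tested in A375 and 9.11% and 12.1% in CHL1 were called higher and lower. Named after their values were seen, NKD2 (1.68), TNKS (0.30), AXIN1 (0.25), CSNK1A1 (0.20) and BTRC (-0.45) complete the called genes of A375. The call was lost for TNKS without resistant replicate 1 or 3 or parental replicate 2 or 3, for AXIN1 without resistant replicate 1 or 2 or parental replicate 1, and for CSNK1A1 without parental replicate 3 (edgeR, adjusted p up to 0.133, 0.0851 and 0.0546). NKD2, the homologue of NKD1, went there from 0.485 to 1.56 CPM. GSK3A, 1 of the kinases that mark beta-catenin, rose in A375 by 0.52 ± 0.06, beside a neighbour median of 0.45 on chromosome 19. TNKS2, a tankyrase that destabilises AXIN, had -0.64 ± 0.06 in A375, beside a neighbour median of -0.62 on chromosome 10. DVL1, a Dishevelled, fell in A375 by 0.45 on the log2 scale, beside a neighbour median of -0.06. In CHL1, GSK3B had -0.44 ± 0.05 and DVL3 -0.25 ± 0.05, both on chromosome 3 with neighbour medians of -0.34 and -0.29. APC, the other scaffold of the complex, had -0.27 ± 0.07 (adjusted p = 0.0122) in CHL1, beside a neighbour median of -0.08. BTRC had a neighbour median of -0.54 in A375, also on chromosome 10, with 17 of 20 neighbours called lower. The values of GSK3A, TNKS2, BTRC, GSK3B and DVL3 lay within about 0.1 of their neighbour medians.

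CTNNB1 (ENSG00000168036, chromosome 3), the gene of beta-catenin itself, fell in resistant CHL1 and rose slightly in resistant A375. Its CHL1 levels were 647, 630.1 and 615 CPM in parental and 413, 419 and 419 CPM in resistant libraries. The groups stood well apart, with little spread inside either. The mean went from 631 ± 15.8 CPM (SD, n = 3) to 417 ± 3.56 CPM (SD, n = 3), -0.60 ± 0.04 (adjusted p = 2.76e-06). The 20 expressed neighbours of CTNNB1 on chromosome 3 had a median of -0.41 in CHL1, 15 of them called lower and 0 higher. The fold change of CTNNB1 was thus larger than the neighbour median and in the same direction, and the part of the neighbours' shift in it was not tested.

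In A375 the CTNNB1 levels were 439, 443 and 406 CPM in parental and 492, 489 and 476 CPM in resistant libraries. The lowest resistant library was above the highest parental one. The mean went from 429 ± 20.4 CPM (SD, n = 3) to 486 ± 8.20 CPM (SD, n = 3), 0.18 ± 0.05 (adjusted p = 0.0256), beside a neighbour median of -0.09. This call was lost without parental replicate 3 or without any 1 of the 3 resistant libraries (edgeR, 0.0562 to 0.104). ULK4, which overlaps CTNNB1 on the opposite strand, had 2038 counts against 161638 for CTNNB1 and was not called in either line.

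**Figure D4:**
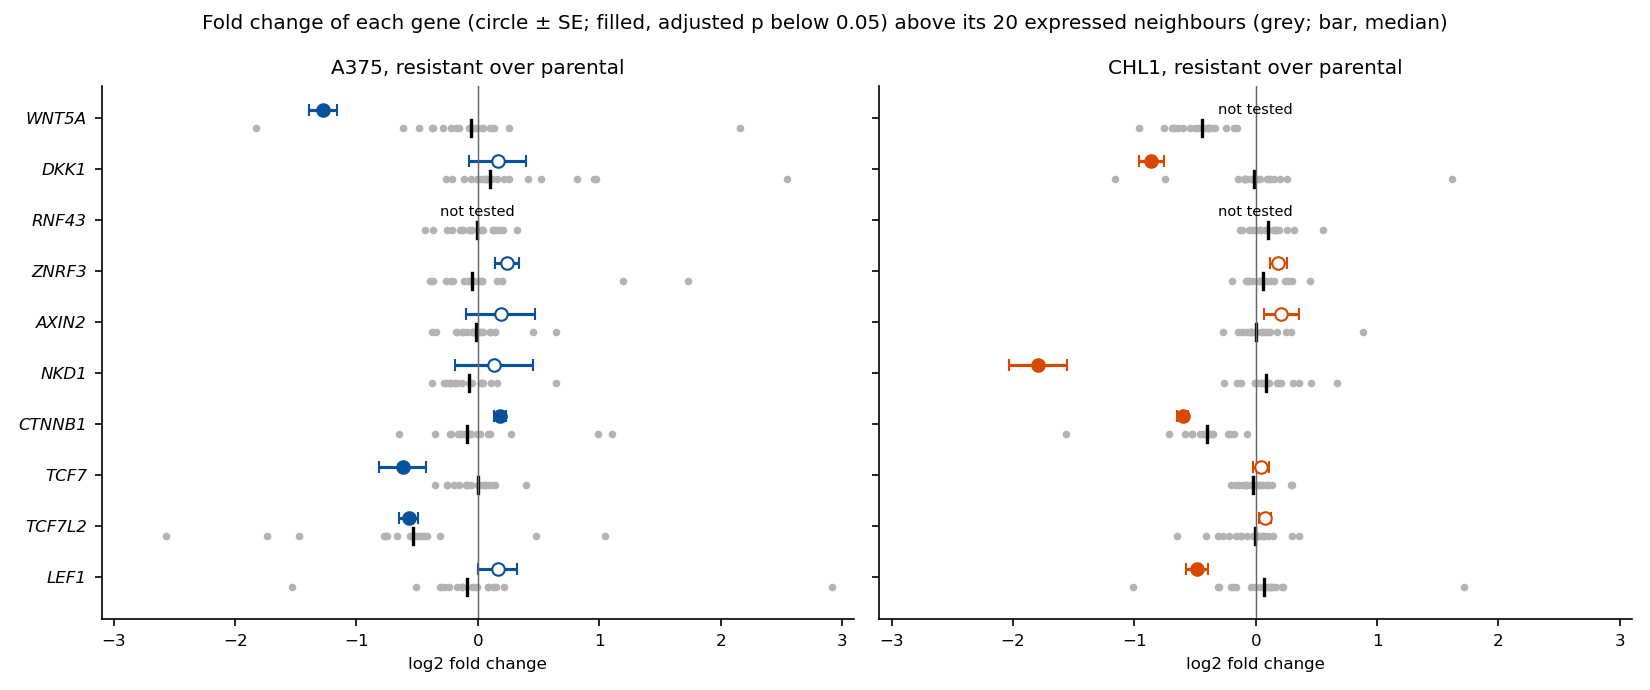
Log2 fold change, resistant over parental (x axis), of each of the 10 WNT genes (y axis) in A375 (left) and CHL1 (right). Circles give the gene ± SE, filled where the adjusted p was below 0.05, grey points its 20 nearest expressed protein-coding genes and black bars their median. The neighbour medians lie left of 0 for TCF7L2 in A375 and for WNT5A and CTNNB1 in CHL1, and near 0 elsewhere.

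Beta-catenin reaches DNA through 4 TCF/LEF proteins, and 3 of them belong to the set. TCF7L2 (ENSG00000148737, chromosome 10) fell in resistant A375, from 73.6, 65.2 and 60.3 CPM in parental to 46.4, 43.5 and 44.0 CPM in resistant libraries. No resistant library reached the lowest parental one. The mean went from 66.4 ± 6.75 CPM (SD, n = 3) to 44.6 ± 1.57 CPM (SD, n = 3), -0.57 ± 0.08 (adjusted p = 0.000764). Its 20 expressed neighbours on chromosome 10 had a median of -0.54, 18 of them called lower and 2 higher, and the part of that shift in the result was not tested. In CHL1 the TCF7L2 levels were 49.6, 50.3 and 48.7 CPM in parental and 53.0, 54.2 and 49.97 CPM in resistant libraries, which overlapped, 0.08 ± 0.05 (adjusted p = 0.348).

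TCF7 (ENSG00000081059, chromosome 5), the T cell factor also known as TCF1, was low in A375 and moderate in CHL1. In A375 it had 3.83, 2.41 and 3.22 CPM in parental and 2.19, 1.91 and 2.04 CPM in resistant libraries, with every resistant library lower. The log2 fold change was -0.62 ± 0.19 (adjusted p = 0.0403), beside a neighbour median of 0.0020. The TCF7 call was lost without parental replicate 1 or 3, or without any 1 of the 3 resistant libraries (edgeR, 0.0803 to 0.129), and with DESeq2 (0.0669). In CHL1, TCF7 had 35.0, 35.0 and 33.5 CPM in parental and 34.1, 38.8 and 33.7 CPM in resistant libraries, which overlapped, 0.04 ± 0.07 (adjusted p = 0.730). SKP1 overlaps TCF7 on the opposite strand with 73002 counts against 6041. SKP1 reads that fall on TCF7 exons cannot be told apart from TCF7 reads, and SKP1 itself had -0.08 in A375 and 0.10 in CHL1, not called in either.

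LEF1 (ENSG00000138795, chromosome 4), known both as a partner and as a target of beta-catenin, fell in resistant CHL1. Its levels were 12.1, 11.3 and 12.7 CPM in parental and 8.92, 9.15 and 7.91 CPM in resistant CHL1, with all resistant values lower. The mean went from 12.1 ± 0.712 CPM (SD, n = 3) to 8.66 ± 0.663 CPM (SD, n = 3), -0.48 ± 0.09 (adjusted p = 0.00258), beside a neighbour median of 0.07. With the spread estimated from all 12 libraries the adjusted p was 0.0655. In A375, LEF1 had 40.4, 31.0 and 27.0 CPM in parental and 42.0, 29.7 and 38.6 CPM in resistant libraries, which overlapped, 0.16 ± 0.16 (adjusted p = 0.501).

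The 4 TCF/LEF genes were also summed per kilobase of exon, which gives the share each transcript held on that rough scale. TCF7L2 made up 59.8% ± 2.38 of the pool in parental and 46.0% ± 3.43 in resistant A375 (SD, n = 3). LEF1 made up 36.8% ± 2.45 and 47.1% ± 3.79 of it. In A375 the LEF1 share thus did not overlap between groups, 34.5% to 39.4% against 42.8% to 49.9%, although the LEF1 level was not called. A share also depends on the rest of the pool, and mean TCF7L2 went from 9.85 to 6.63 CPM per kb. Mean LEF1 went from 6.12 to 6.86 CPM per kb. TCF7L1, the remaining gene of the pool and mostly a repressor, rose in A375 from 1.29, 0.704 and 1.21 CPM to 3.37, 3.28 and 3.73 CPM, 1.69 ± 0.22 (adjusted p = 0.000553), and its share went from 1.47% to 5.44%. In CHL1 TCF7L1 was the largest part of the pool, 48.0% in parental and 50.2% in resistant libraries, and TCF7 held 13.7% and 13.6%. LEF1 was the smallest part in CHL1, 8.97% ± 0.416 in parental and 6.23% ± 0.348 in resistant libraries (SD, n = 3). The whole pool was 16.5 ± 2.36 and 14.5 ± 1.41 CPM per kb in parental and resistant A375, and 25.1 ± 0.544 and 25.9 ± 1.44 CPM per kb in CHL1.

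**Figure D5:**
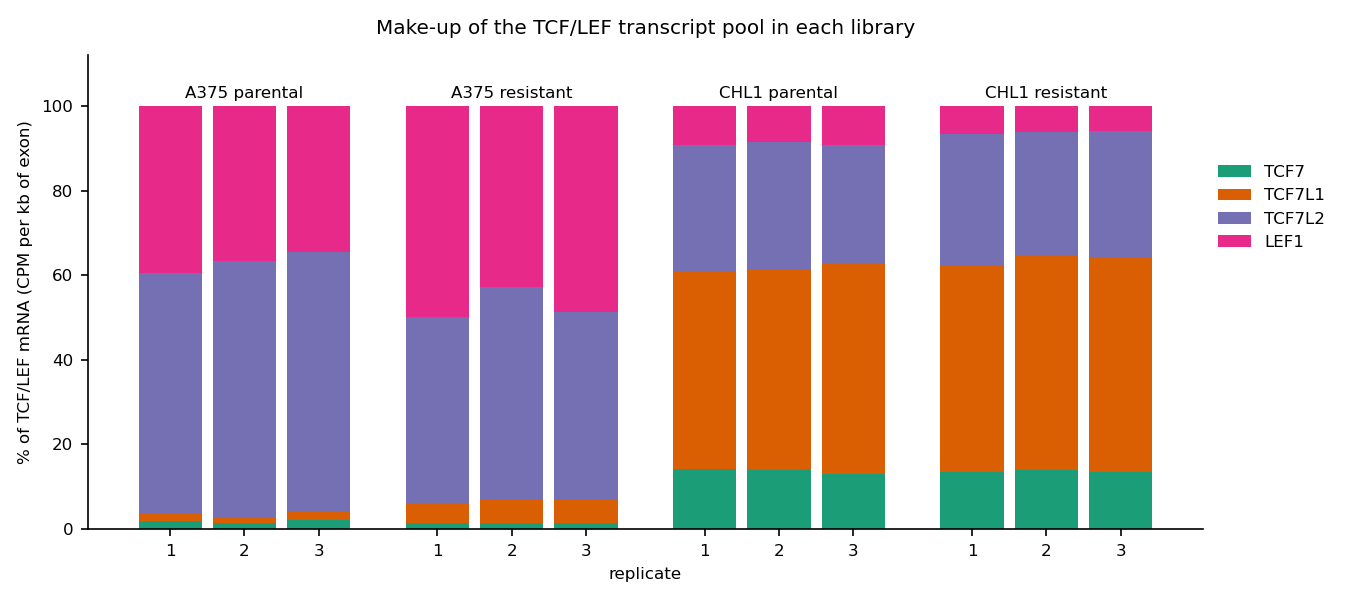
Stacked bars give the percentage of the summed TCF/LEF transcripts (y axis, from normalised CPM per kb of exon) held by TCF7, TCF7L1, TCF7L2 and LEF1 in each library (x axis, replicates by group). TCF7L2 and LEF1 fill most of each A375 bar, with a larger LEF1 piece in the resistant libraries, and TCF7L1 fills about as much of each CHL1 bar as the other 3 genes together.

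On the wider list, 15 nuclear effectors were tested in both lines, with 5 up and 5 down in A375 and 0 up and 2 down in CHL1, the latter being CTNNB1 and LEF1, against 28.3% of all genes called in A375 and 21.2% in CHL1. Of those called in A375, BCL9 (0.55), TLE2 (0.99), CTNNBIP1 (-0.45) and TLE4 (-0.33) are named after their values were seen. The BCL9 call was lost without parental replicate 3 or resistant replicate 1 (up to 0.0607), and the CTNNBIP1 call without resistant replicate 1 or 2 or parental replicate 1 (up to 0.0700). TLE3, a corepressor bound by TCF/LEF proteins, rose in A375 from 39.6 to 59.1 CPM, 0.58 ± 0.10 (adjusted p = 0.00282). BCL9L, an adaptor that helps beta-catenin activate transcription, fell there from 135 to 96.1 CPM, -0.49 ± 0.09 (adjusted p = 0.00398). Among 14 further genes described as targets, 9 were tested in A375, 2 up (SNAI2 and TCF4) and 0 down, and 11 in CHL1, 3 up and 1 down. SNAI2, a regulator of migration, went from 0.607, 0.630 and 0.622 CPM to 2.16, 1.98 and 3.19 CPM in A375, 1.97 ± 0.25 (adjusted p = 0.000521). In CHL1 the adhesion receptor CD44 rose by 0.53 ± 0.05 and the receptor TNFRSF19 by 0.23 ± 0.04, while the transcription factor TBX3 fell from 204 to 134 CPM, -0.61 ± 0.07 (adjusted p = 8.63e-05). The TNFRSF19 call was lost with the spread from all 12 libraries (adjusted p = 0.595). TCF4 had 0.32 in A375 (adjusted p = 0.0497), lost without any 1 of the parental libraries or resistant replicate 1 or 3 (0.0666 to 0.173), with DESeq2 (0.0519) and with no filter on low counts (0.0706). TCF4 was called in CHL1 too, at 0.28 (adjusted p = 0.0137), which was noted after its values were seen.

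Over the whole wider list, 75 of 104 genes were tested in A375, 18 up and 15 down, with a median log2 fold change of 0.11, beside 13.4% up and 14.8% down over all genes tested. In CHL1 72 were tested, 10 up and 14 down, with a median of -0.0092, beside 9.11% up and 12.1% down over all genes. With the spread from all 12 libraries 6 were up in CHL1. The A375 count of genes up was 10 without resistant replicate 1 and 11 without parental replicate 3. Among 16 receptors, 14 were tested in A375, 2 up and 3 down, and 13 in CHL1, 1 up and 4 down. ROR1, a receptor for WNT5A, fell in A375 from 21.4 to 13.3 CPM, -0.68 ± 0.11 (adjusted p = 0.00193). RYK, a WNT co-receptor, was called lower in both lines, -0.25 in A375 and -0.24 in CHL1, the latter beside a neighbour median of -0.27 on chromosome 3. The other called receptors are named after their values were seen: FZD9 (0.59) and FZD7 (-0.51) in A375, and FZD8 (-0.45) and PTK7 (-0.32) in CHL1. The FZD9 call was lost with DESeq2 (0.0590) and in 4 of 6 fits with a library left out, those without resistant replicate 1 or 2 or parental replicate 2 or 3 (up to 0.0969). The PTK7 call in CHL1 was lost with DESeq2 (0.117), with no filter on low counts (0.0564), with the spread from all 12 libraries (0.0884) and in 5 of 6 fits with a library left out, all but that without resistant replicate 2. PTK7, a planar polarity receptor, rose in A375, 0.52 ± 0.09 (adjusted p = 0.00302). The Frizzled gene FZD7 rose in CHL1, 0.36 ± 0.07 (adjusted p = 0.00372), while FZD3 fell there, -0.35 ± 0.07 (adjusted p = 0.00283).

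The 2 lines were then set against each other, in a fit of all 12 libraries over genes listed in both tables. Differences are A375 minus CHL1 on the log2 scale. All 9 tested genes of the set were called between the parental lines, 4 higher and 5 lower in A375. Over all 19241 genes 75.6% were called, 38.2% higher and 37.4% lower, so most genes differed between the lines. WNT5A had the widest gap, with 5034 counts over the parental A375 libraries and 1 over the parental CHL1 libraries, a ratio by depth of 5384 (95% exact counting interval 965.9 to 212692). DKK1 was higher in parental A375 by 1.95 ± 0.21 and LEF1 by 1.45 ± 0.15. TCF7 was lower in A375, -3.45 ± 0.12, as was AXIN2, -3.15 ± 0.22. The smaller differences were 0.42 ± 0.07 for TCF7L2, -0.56 ± 0.04 for CTNNB1, -0.77 ± 0.08 for ZNRF3 and -1.12 ± 0.28 for NKD1.

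Between the resistant derivatives all 9 tested genes were called again, 5 higher and 4 lower in A375, against 76.6% of all genes, 38.0% higher and 38.6% lower. CTNNB1, NKD1 and TCF7L2 changed sides between the 2 comparisons, which share no library. CTNNB1 was lower in parental A375 than in parental CHL1 and higher in the resistant pair, 0.22 ± 0.04 (adjusted p = 0.000352). TCF7L2 went from higher to lower in A375, -0.23 ± 0.07 (adjusted p = 0.00677), a call lost without A375 resistant replicate 2 (adjusted p = 0.0504). NKD1 went from lower to higher, 0.80 ± 0.33 (adjusted p = 0.0407), but that call was lost without any 1 of the 3 A375 resistant libraries, CHL1 parental replicate 1 or 2 and either of CHL1 resistant replicates 1 and 3 (0.0505 to 0.184). Without CHL1 resistant replicate 3 the NKD1 difference was 0.52. DKK1 and LEF1 were further apart in the resistant pair, 2.97 ± 0.22 and 2.09 ± 0.15, and TCF7 as well, -4.11 ± 0.13. AXIN2 (-3.17 ± 0.21) and ZNRF3 (-0.72 ± 0.08) stayed close to their parental differences. WNT5A had 2287 counts over the resistant A375 libraries and 1 in CHL1, a ratio of 2223 (95% exact counting interval 398.6 to 87841). RNF43 overlapped between the lines in both comparisons, while 77.2% of all genes did not overlap between the parental groups and 79.2% did not between the resistant groups.

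Whether the resistant derivatives departed from their parents differently in the 2 lines was tested with the interaction term, the A375 effect minus the CHL1 effect. It was called for 6 of 9 genes of the set, 4 positive and 2 negative, against 23.6% of 19241 genes (11.7% positive and 11.9% negative). CTNNB1 had 0.78 ± 0.06 (adjusted p = 1.14e-06), NKD1 1.92 ± 0.43 (adjusted p = 0.00472), DKK1 1.02 ± 0.30 (adjusted p = 0.0216) and LEF1 0.64 ± 0.21 (adjusted p = 0.0395). The negative terms were -0.65 ± 0.10 (adjusted p = 0.000200) for TCF7L2 and -0.66 ± 0.18 (adjusted p = 0.0153) for TCF7. Each of these 6 genes was called within 1 line and not the other, except CTNNB1, which was called in both. Leaving out 1 library at a time removed the LEF1 call in 10 of 12 fits, all but those without A375 parental replicate 1 or A375 resistant replicate 2 (0.0537 to 0.10). The DKK1 term was lost without CHL1 parental replicate 1 or CHL1 resistant replicate 1 or 2 (0.0523 to 0.0563), and the TCF7 term without A375 resistant replicate 2 (0.0510). ZNRF3 (0.05 ± 0.12) and AXIN2 (-0.03 ± 0.35) were not called, and the WNT5A term (-1.28 ± 2.27) is imprecise, since the CHL1 libraries hold 1 count in each group.

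Ranked per kilobase of exon, the 10 transcripts kept a similar order inside each line. The length counts all annotated exons of a gene, 17425 bases for NKD1, 11927 for CTNNB1, 10063 for TCF7 and 2206 for DKK1. A gene whose main isoform is much shorter is thus ranked too low, and the order between genes is rough. In mean CPM without length, NKD1 was above AXIN2 in A375, 0.955 against 0.583 in parental and 1.05 against 0.667 in resistant libraries. In parental A375, DKK1 was highest at 78.3 CPM per kb, followed by CTNNB1 at 35.97 CPM per kb. TCF7L2 (9.85 CPM per kb), WNT5A (8.43) and LEF1 (6.12) came next, and neighbours in this run overlapped. ZNRF3 at 2.19 and TCF7 at 0.313 CPM per kb were below them, and AXIN2, NKD1 and RNF43, at 0.112, 0.0548 and 0.0164 CPM per kb, overlapped from 1 to the next. In resistant A375 LEF1 (6.86 CPM per kb) and TCF7L2 (6.63) overlapped below CTNNB1, and WNT5A at 3.48 CPM per kb was below both without overlap. In both CHL1 groups the order was CTNNB1, DKK1, TCF7L2, ZNRF3, TCF7, LEF1, AXIN2, NKD1, RNF43 and WNT5A. CTNNB1 stood at 52.9 CPM per kb in parental and 34.9 CPM per kb in resistant CHL1, and DKK1 at 20.2 and 11.2 CPM per kb. The neighbours in that order did not overlap, except NKD1 and RNF43 in resistant CHL1.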

How the data were processed

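RNA of A375, CHL1 and their resistant derivatives was sequenced in 12 libraries with TruSeq RNA v2, which does not mark strand, per the labels' protocols. The authors deposited 1 table of raw read counts per Ensembl gene for each line, with 33932 genes for A375 and 32478 for CHL1, 29735 of them in both, and without normalisation. Tools named in the submitters' processing notes are cutadapt 1.7, CASAVA 1.8.2, HTSeq 0.5, TopHat2 and limma. For the counts, the build and annotation are not given in the sources used. Symbols, exon lengths and gene order came from GENCODE 29 and a table of gene names. No symbol was found for 2484 and 2284 identifiers, with 1.62% and 1.38% of the counts.

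The 10 genes, the wider WNT list of 104 genes in 8 roles and the tests were chosen with earlier results of these data known, so no count over a list is independent evidence. All 10 genes are described. Of the wider list up to 3 called genes per role and line were named, those with the smallest adjusted p among genes of at least 1 CPM in the higher group; others are marked in the text.

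Each line was fitted on its 6 libraries in R 4.3.3 with edgeR 4.0.16 (TMM, filterByExpr with a minimum count of 10, quasi-likelihood F-test, Benjamini-Hochberg adjustment over all genes tested). Line contrasts and the interaction used all 12 libraries over genes in both tables. Tests are two-sided, and the SE divides the log2 fold change, without its sign, by the root of F. Ratios of low counts carry 95% exact intervals, for counting error alone, as reads lack molecular identifiers and need not be independent molecules. Exon length counts all isoforms of a gene together, so CPM per kb shifts if isoforms change. Alternatives were DESeq2 1.42.0, no filter on low counts, a filter of 1 CPM in 3 libraries, the replicate number as a block, leaving out each library, the spread from all 12 libraries and, between lines, genes of 1 table set to 0 in the other. Tables and figures used Python 3.11.15 with pandas 2.3.3, scipy 1.17.1 and matplotlib 3.10.9.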

Additional observations from a re-analysis of the deposited data

Results flagged for a closer look

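The change from parental to resistant cells differed between A375 and CHL1, by the edgeR interaction term at an adjusted p below 0.05, for 6 of the 9 genes of the set that were tested, against 23.6% of all 19241 genes. The term is the A375 log2 fold change minus the CHL1 log2 fold change. CTNNB1 had 0.78 (adjusted p = 1.14e-06), higher in all 3 resistant A375 libraries and lower in all 3 resistant CHL1 libraries than in any parental library of the line. NKD1 had 1.92, DKK1 1.02 and LEF1 0.64, each lower in all 3 resistant CHL1 libraries with overlapping groups in A375. The LEF1 term was lost in 10 of 12 fits with a library left out, the DKK1 term in 3 and the TCF7 term in 1, as given in the report. TCF7 had -0.66 and TCF7L2 -0.65, each lower in all 3 resistant A375 libraries with overlapping groups in CHL1. The neighbour medians of log2 fold change were -0.54 for TCF7L2 in A375 and -0.41 for CTNNB1 in CHL1. The part of these neighbour shifts in the 2 terms was not tested.

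On the wider WNT list, 3 genes called in both lines also had a called interaction term. WNT9A, RYK, DKK3 and TCF4 were called in both lines too, without a called term. Over all 19241 genes tested, whether called in a line or not, 23.6% had a called term. FZD7 and PTK7 were called in opposite directions in the lines, which makes a called term likely. The ligand carrier WLS had 0.47 (adjusted p = 0.00125), from 0.61 in A375 and 0.14 in CHL1, where its call was lost in several fits given in the report. FZD7 had -0.88 (adjusted p = 0.000577), from -0.51 in A375 and 0.36 in CHL1. PTK7 had 0.83 (adjusted p = 0.000730), from 0.52 in A375 and -0.32 in CHL1, where its call was lost without any 1 of the parental libraries or of resistant replicates 1 and 3 (0.0760 to 0.148). The A375 value of FZD7 and the CHL1 value of PTK7 fall outside the rule for named genes and were chosen after they were seen.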

How the results depend on the processing

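Of 645 values of the 10 genes under alternative settings, 0 reversed, 33 lost a call and 3 gained one, all 3 for ZNRF3 in A375 (adjusted p = 0.0395 with the replicate block, 0.0465 with the spread from all 12 libraries and 0.0343 without parental replicate 2). The 33 losses are the leave-one-out results given in the report, TCF7 in A375 with DESeq2 and LEF1 in CHL1 with the spread from all 12 libraries. For the other called or named genes of the wider list, 1441 of 1560 values kept their call and direction, 99 lost a call and 20 gained one. Leaving out 1 library gave 3782 to 4738 genes called in A375, 2634 to 3297 in CHL1, 14123 to 14740 between parental lines, 14299 to 14992 between resistant lines and 3760 to 4519 for the interaction. For the wider list it gave 10 to 18 genes up and 13 to 16 down in A375, and 9 to 12 up and 13 to 14 down in CHL1. With the spread from all 12 libraries the CHL1 list had 6 genes up instead of 10. The causes of these shifts were not tested.

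Replicate numbers are shared between groups. The deviations of same-numbered libraries correlated at -0.0068 to 0.274 in A375 and 0.0066 to 0.146 in CHL1, not above 0.1 for every pair. Not every library correlated best with its own number. The labels do not say whether same-numbered libraries share more than the number, and the main fits leave it out. With the replicate number as a block, 6307 genes were called in A375, 4305 in CHL1, 14877 and 15022 between the parental and the resistant lines, and 5364 for the interaction. Without the block the counts were lower, 5111 in A375, 3645 in CHL1, 14550 and 14740 between the lines, and 4536 for the interaction. On the wider list the block gave 22 up and 17 down in A375 and 14 up and 18 down in CHL1. WNT5A in CHL1 and RNF43 in both lines are limited by depth.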
